A study of Macaca fascicularis with 22 samples.

Results

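The genes described here are the fibril-forming and type VI collagen chains COL1A1, COL1A2, COL2A1, COL3A1, COL5A1, COL6A1, COL6A2, COL6A3 and COL27A1. They were chosen by the human RefSeq accession that the array files give for each probe. No measured value entered that rule, though earlier results of these data were known when it was set. The accessions are NM_000088 for COL1A1, NM_000089 for COL1A2, NM_001844 for COL2A1, NM_000090 for COL3A1, NM_000093 for COL5A1, NM_001848 for COL6A1, NM_001849 for COL6A2, NM_004369 for COL6A3 and NM_032888 for COL27A1. Of 10 accessions sought, 9 were on the array with 1 probe each, out of 20217 probes for 19376 accessions, and the chain COL5A2 (NM_000393) had no probe. RNA came from neonates of the Cynomolgus macaque (Macaca fascicularis), with no other treatment. The lower birth weight group (LBW) lay between centiles 5 and 25 and the average birth weight group (ABW) between centiles 50 and 75. Skeletal muscle and umbilical cord had 4 arrays in each birth weight group and liver had 3 in each, which made 22 single-colour rhesus arrays. The methods name a single sire and liver and muscle taken from the same neonates, and do not spell out whether the cords were theirs. The labels do not tie arrays to animals, so p-values across tissues treat any arrays of an animal as separate samples, and every p-value measures only the spread between these arrays.

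Collagens are triple helices of 3 chains. Chains of types I, II, III, V and XXVII assemble into fibrils, with type I the main fibril of tendon, skin and bone, type III its partner in soft tissues, type V a minor chain inside type I fibrils, and types II and XXVII typical of cartilage. Type VI collagen is built from COL6A1, COL6A2 and COL6A3 and forms beaded microfilaments that anchor muscle fibres and other cells to the matrix around them. In muscle these chains are made mainly by the fibroblasts of the connective tissue sheaths, in the liver by stellate cells and portal fibroblasts, and in the umbilical cord by the stromal cells of Wharton's jelly and the vessel walls.

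Each level is the log2 processed signal of a probe minus the 75th percentile of the same array, so that 0 is that percentile and a step of 1 is a doubling. Before scaling this percentile ranged from 315.5 to 2390.0 signal units, and between 14596 and 17889 probes per array were flagged by the scanner as well above background. Of the 20217 probes, 17117 had the flag on 75% or more of a group's arrays and were tested, all 9 collagens among them. The flag was set on all 22 arrays for 8 of the collagens, and no collagen spot was saturated. COL2A1, the chain of type II collagen, was flagged on 6 of 8 skeletal muscle arrays, 2 of 6 labelled liver and 2 of 8 labelled umbilical cord. Slide 1 held all muscle ABW arrays and slide 2 all muscle LBW arrays, and the effects of slide and weight group on muscle cannot be told apart. These slides held no other arrays, so slide and tissue cannot be told apart either where muscle is set against the other labels.

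The tissue labels need a caution before any collagen value is read. Of 18 hepatocyte genes, all 18 were lower on every array labelled liver than on every array labelled umbilical cord. Their summed level, the log2 of their added scaled signals, was 1.60 to 2.49 for labelled liver against 10.14 to 11.64 for labelled umbilical cord, and 8 of the 18 were well above background on no array labelled liver. All 11 skeletal muscle genes measured were higher on every muscle array than on every other array. The 4 smooth muscle genes measured, a cell type of vessel walls, summed to 9.40 to 9.65 for labelled liver against 3.52 to 7.52 for labelled umbilical cord. The arrays are therefore called by their labels, as labelled liver or labelled umbilical cord.

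The major collagens were highest for labelled liver, intermediate for skeletal muscle and lowest on the arrays labelled umbilical cord. COL1A1, which gives most of the chains of type I collagen, averaged 4.92 ± 0.20 (SD, n = 6) for labelled liver. In skeletal muscle its level was 1.81 ± 0.77 (SD, n = 8), and on the arrays labelled umbilical cord it was -1.58 ± 0.78 (SD, n = 8). The 3 sets of arrays did not overlap for COL1A1. Its difference between labelled liver and labelled umbilical cord was 6.49 ± 0.29 (SE) on the log2 scale, or 90.1-fold (limma, adjusted p = 6.82e-14).

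**Figure D1:**
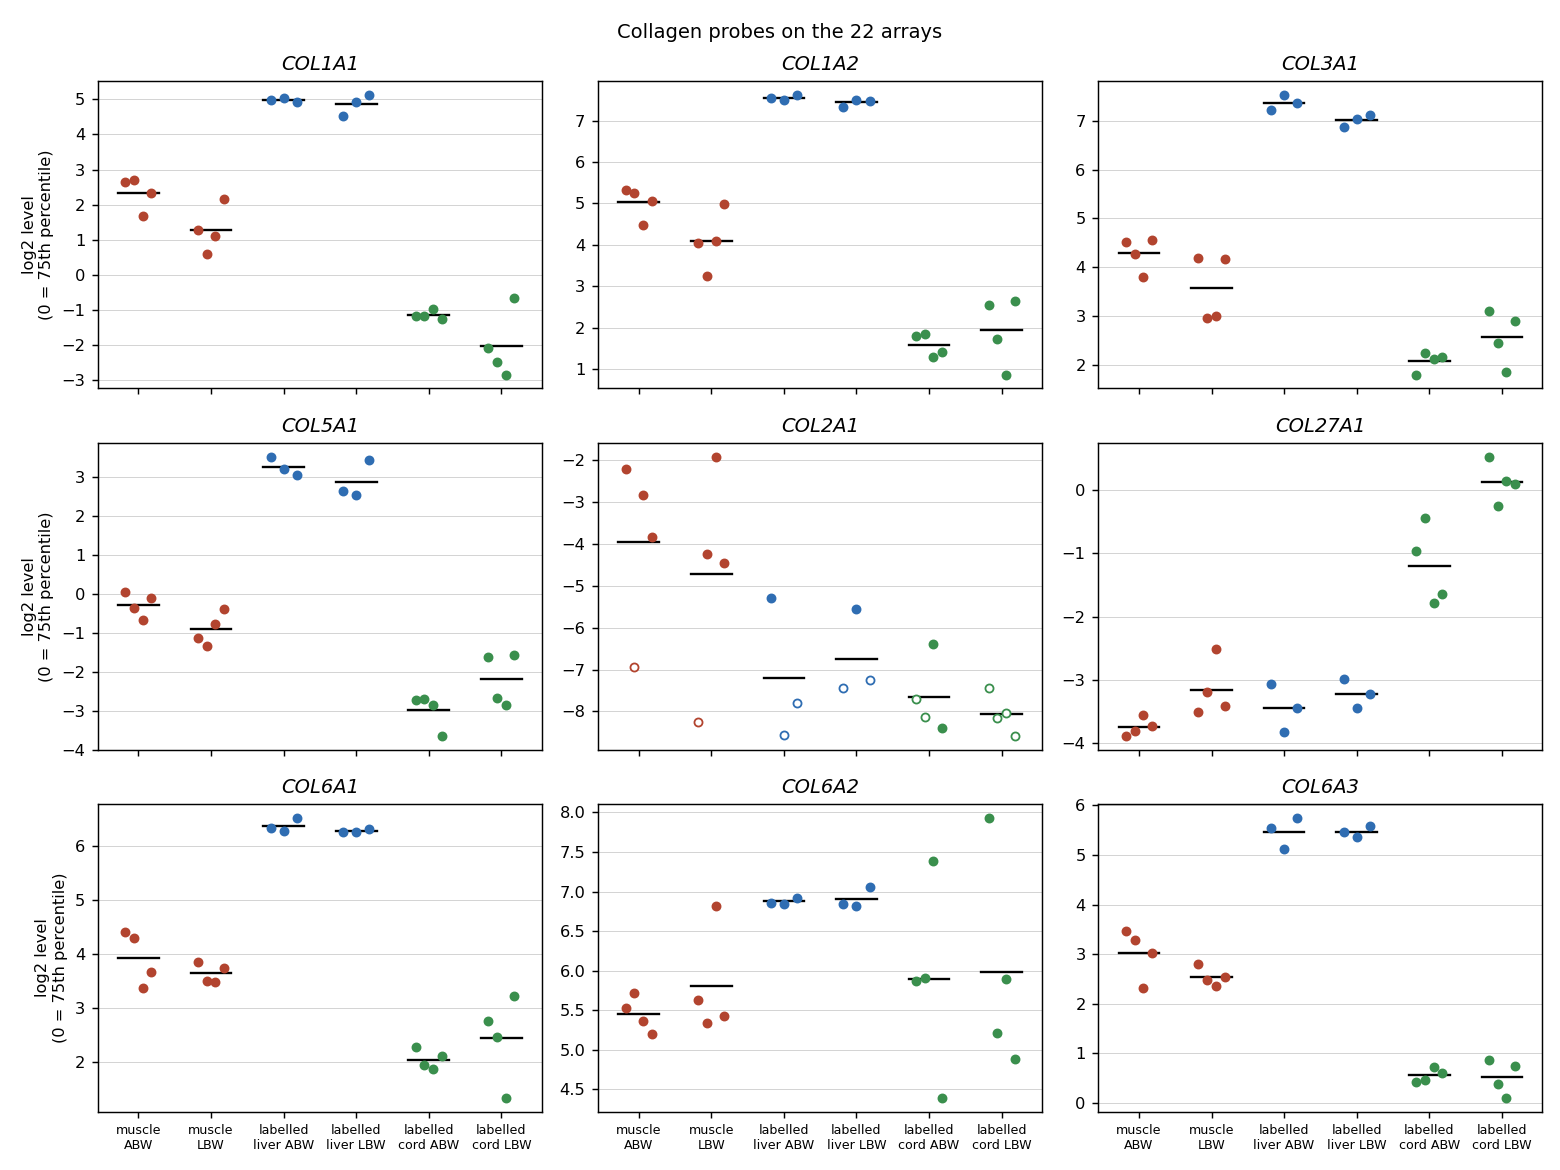
Level of each collagen probe on each of the 22 arrays (y axis, log2 relative to the array's 75th percentile) in the 6 groups (x axis). Points are arrays, open points are arrays on which the probe was not well above background, and bars are group means. COL27A1 is highest on the arrays labelled umbilical cord, with a mean of -0.54, where COL1A1, COL1A2, COL3A1, COL5A1, COL6A1 and COL6A3 have their lowest means.

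The partner chain of type I collagen, COL1A2, had a level of 7.50 ± 0.09 (SD, n = 6) for labelled liver, 4.56 ± 0.73 (SD, n = 8) for skeletal muscle and 1.76 ± 0.60 (SD, n = 8) on the arrays labelled umbilical cord. COL3A1, the single chain of type III collagen, had levels of 7.19 ± 0.23 (SD, n = 6), 3.94 ± 0.63 (SD, n = 8) and 2.33 ± 0.47 (SD, n = 8) in the same order. COL5A1, which limits the diameter of type I fibrils, had levels of 3.06 ± 0.40 (SD, n = 6), -0.59 ± 0.48 (SD, n = 8) and -2.58 ± 0.69 (SD, n = 8). These chains followed the order of COL1A1, and only COL3A1 had muscle arrays that overlapped those labelled umbilical cord, with a lowest muscle level of 2.96 against a highest of 3.12. Between labelled liver and labelled umbilical cord the difference was 5.74 ± 0.27 (SE) for COL1A2, 4.85 ± 0.23 (SE) for COL3A1 and 5.64 ± 0.25 (SE) for COL5A1.

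Among the type VI chains, COL6A1 had a level of 6.33 ± 0.10 (SD, n = 6) for labelled liver, 3.79 ± 0.38 (SD, n = 8) for skeletal muscle and 2.25 ± 0.58 (SD, n = 8) on those labelled umbilical cord. COL6A3, the largest chain of the microfilament, had levels of 5.47 ± 0.21 (SD, n = 6), 2.78 ± 0.43 (SD, n = 8) and 0.54 ± 0.25 (SD, n = 8). Both chains had the same order as type I collagen, with no overlap between the 3 sets of arrays. The differences between labelled liver and labelled umbilical cord were 4.08 ± 0.23 (SE) for COL6A1 and 4.93 ± 0.18 (SE) for COL6A3.

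COL6A2, the remaining chain of type VI collagen, had no set order between skeletal muscle and labelled umbilical cord. Its level was 6.89 ± 0.09 (SD, n = 6) for labelled liver, 5.63 ± 0.51 (SD, n = 8) for skeletal muscle and 5.93 ± 1.20 (SD, n = 8) on the arrays labelled umbilical cord. On the latter it read 5.87, 5.91, 7.39 and 4.39 in ABW and 7.93, 5.21, 5.89 and 4.89 in LBW. Its SD there was larger than those of COL6A1 (0.58) and COL6A3 (0.25) on the same arrays. Muscle minus labelled liver was -1.26 (SE 0.43, adjusted p = 0.0141), while muscle and labelled umbilical cord differed by -0.31 (95% confidence interval -1.13 to 0.52) and labelled liver and labelled umbilical cord by 0.96 (0.06 to 1.85, adjusted p = 0.0547). The last difference passed at 0.94 with normexp background correction (adjusted p = 0.0495), at 1.78 with quantile normalization (0.000361), at 0.96 with a trended, robust spread (0.0499) and at 0.96 with slide as a random block (0.0483). It also passed without the arrays of slide 6 (0.96, adjusted p = 0.0415), without LBW replicate 3 of muscle (0.96), without ABW replicate 3 labelled umbilical cord (1.21) and without LBW replicate 1 of that label (1.28). Scaled to spike-in controls it was 0.50 (adjusted p = 0.508).

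COL27A1, a long fibril-forming chain of cartilage, was the reverse of the major fibrillar chains. Its level was -0.54 ± 0.85 (SD, n = 8) on the arrays labelled umbilical cord, against -3.45 ± 0.44 (SD, n = 8) in skeletal muscle and -3.33 ± 0.31 (SD, n = 6) on the arrays labelled liver. Every array labelled umbilical cord lay above all others. Muscle minus labelled umbilical cord was -2.91 ± 0.20 (SE, adjusted p = 6.87e-11) and labelled liver minus labelled umbilical cord was -2.79 ± 0.22 (SE, adjusted p = 5.08e-10), while muscle minus labelled liver was -0.12 with a confidence interval of -0.57 to 0.33.

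COL2A1, the cartilage chain, lay below the 75th percentile on every array. In skeletal muscle its level read -2.21, -6.95, -2.84 and -3.83 in ABW and -8.24, -4.24, -1.92 and -4.46 in LBW, where replicate 2 of ABW and replicate 1 of LBW were not well above background. On the arrays labelled liver it ranged from -8.55 to -5.28 and on those labelled umbilical cord from -8.59 to -6.40. The muscle arrays reached the highest levels and overlapped both other labels. As COL2A1 was flagged on few arrays of the other labels and on none labelled umbilical cord in LBW, the size of a difference rests on how background is treated and is no measured fold. COL2A1 was tested only because of its flags on the muscle arrays, so no p-value is given for muscle against the other labels. Muscle exceeded labelled liver by 2.65 ± 0.82 (SE) as processed, by 2.36 with a floor on dim signals and by 1.097 with normexp background correction. Over labelled umbilical cord the excess was 3.52 ± 0.76 (SE), 2.88 and 0.896 in the same order. The 6 cartilage genes measured, none of them COL2A1, summed to -1.73 to -0.36 in muscle, 0.94 to 2.56 on labelled liver and -1.25 to -0.28 on labelled umbilical cord, and their part in the COL2A1 values was not tested.

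In counts at an adjusted p under 0.05, 6 of the 9 collagens were higher and 1 was lower for labelled liver than for labelled umbilical cord, where 31.3% of all tested probes were higher and 35.6% lower. For skeletal muscle against labelled umbilical cord, 7 collagens were higher and 1 lower (35.8% and 29.1% of all probes), and for muscle against labelled liver 1 was higher and 7 were lower (37.1% and 28.1%). COL2A1, tested only because of its flags in muscle, was the 1 above labelled liver and was among the 7 above labelled umbilical cord. The arrays of labelled liver and labelled umbilical cord did not overlap for 6 higher and 1 lower collagen (19.3% and 18.7% of all probes), those of muscle and labelled umbilical cord for 5 and 1 (17.9% and 14.4%), and those of muscle and labelled liver for 0 and 7 (23.4% and 19.1%). These 3 comparisons share arrays, and the muscle arrays shared no slide with those of the other labels. The median difference of the 9 collagens was 4.85, 1.99 and -2.69 in turn, beside -0.13, 0.11 and 0.21 for all tested probes. Slide 4 held arrays of both labels, LBW replicates 2 and 3 labelled liver and ABW replicates 1 and 2 labelled umbilical cord. Within it labelled liver minus labelled umbilical cord was 6.20 for COL1A1, 5.67 for COL1A2, 5.04 for COL3A1 and -2.63 for COL27A1, with no test. When arrays were scaled to spike-in controls, which moved the median of all probes in muscle minus labelled umbilical cord from 0.11 to -1.07, the muscle excess of COL3A1, COL5A1, COL6A1 and COL6A3 was 0.41, 0.80, 0.36 and 1.06 and no longer passed.

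**Figure D2:**
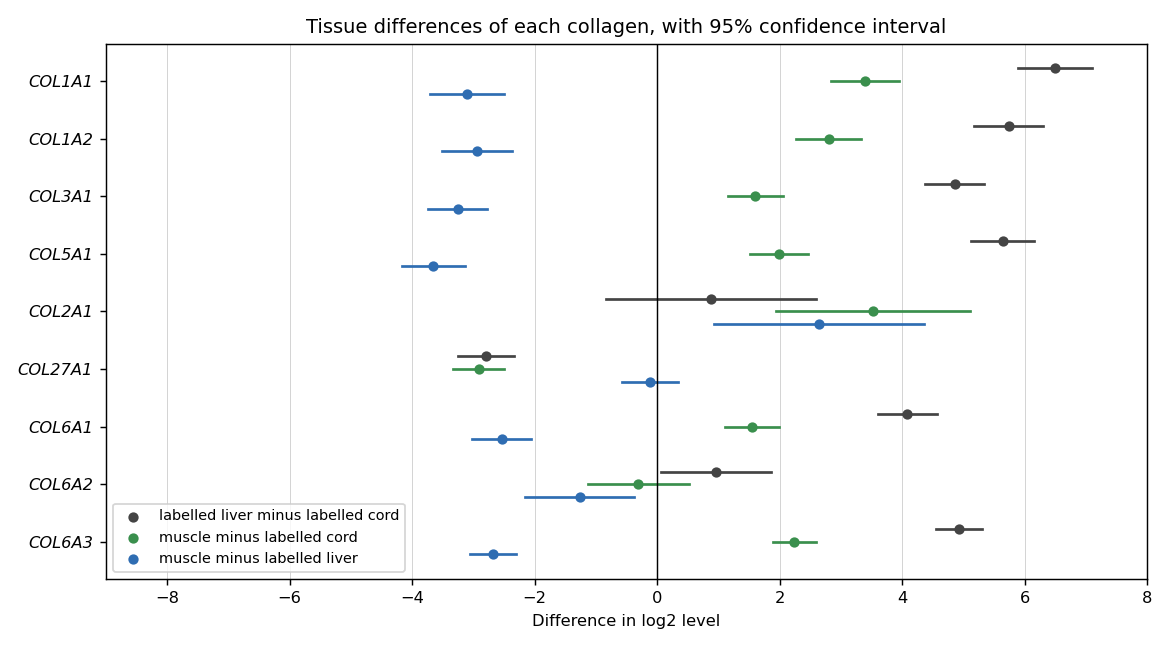
Difference in log2 level between tissue labels (x axis) for each collagen (y axis), as the limma estimate (point) with its 95% confidence interval (line). The intervals of COL1A1, COL1A2, COL3A1, COL5A1, COL6A1 and COL6A3 follow the same order of labels, COL27A1 opposes them against labelled umbilical cord, and COL6A2 has an interval across 0 for muscle minus labelled umbilical cord.

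The question of the study was whether birth weight within the normal range goes with other expression levels, and in skeletal muscle the type I collagen chains COL1A1 and COL1A2 had the lowest estimates of LBW minus ABW among the collagens. COL1A1 read 2.63, 2.70, 1.68 and 2.34 on the ABW muscle arrays and 1.28, 0.59, 1.12 and 2.17 on the LBW muscle arrays. LBW replicate 4 lay within the ABW range and the other LBW arrays below it. LBW minus ABW was -1.05 ± 0.36 (SE), with an unadjusted p of 0.0161 and an adjusted p of 0.218 in limma, and an exact permutation p of 0.0571 (two-sided, n = 4 per group).

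COL1A2 read 5.32, 5.25, 4.47 and 5.06 in ABW muscle and 4.04, 3.26, 4.09 and 4.99 in LBW muscle. As for COL1A1, LBW replicate 4 alone fell inside the ABW range. The difference was -0.93 ± 0.36 (SE, adjusted p = 0.27, exact permutation p = 0.0571, n = 4 per group).

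COL5A1 read 0.04, -0.37, -0.68 and -0.10 in ABW muscle and -1.12, -1.33, -0.77 and -0.39 in LBW muscle, again with LBW replicate 4 inside the ABW range. Its difference was -0.63 ± 0.26 (SE, adjusted p = 0.30, exact permutation p = 0.0571, n = 4 per group). COL3A1 read 4.52, 4.27, 3.80 and 4.57 in ABW muscle and 4.20, 2.96, 3.00 and 4.17 in LBW muscle. Here 2 LBW arrays lay below all ABW arrays and 2 within them, and the difference was -0.70 ± 0.35 (SE, adjusted p = 0.39).

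The type VI chains differed less in muscle. COL6A1 ranged from 3.37 to 4.41 in ABW and from 3.49 to 3.86 in LBW, a difference of -0.29 (95% confidence interval -0.87 to 0.30). COL6A3 ranged from 2.31 to 3.46 in ABW and from 2.35 to 2.80 in LBW, a difference of -0.48 (-1.06 to 0.11). COL6A2 was 5.20 to 5.72 in ABW and read 5.63, 5.34, 6.81 and 5.43 in LBW, where replicate 3 stood above all others, and its difference was 0.35 (-0.38 to 1.09).

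COL27A1 was the single collagen whose muscle groups did not overlap. It read -3.89, -3.80, -3.56 and -3.73 in ABW and -3.50, -3.18, -2.52 and -3.42 in LBW, so that every LBW array lay above every ABW array. The difference was 0.59 ± 0.24 (SE, adjusted p = 0.295), and the exact permutation p of 0.0286 is the smallest that n = 4 per group can give. Non-overlap with LBW higher was met by 8.61% of all tested probes in muscle, and the reverse, met by 1.92%, by no collagen. For COL2A1, with 1 array of each group not well above background, LBW minus ABW was -0.76 (95% confidence interval -3.83 to 2.32).

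No collagen passed an adjusted p under 0.05 in limma in muscle, as for 0% of all probes, and 4 of the 9 had an unadjusted p under 0.05 (14.7% of all probes). The study's threshold asks for a p under 0.05 in its own test and a 1.5-fold change, and here it is applied to limma's unadjusted p. By it 3 were lower in LBW (COL1A1, COL1A2 and COL5A1), where 2.5% of all tested probes were lower, and 1 was higher (COL27A1), where 9.7% were higher. By the methods' t-test on the same values COL1A1 alone met it (unadjusted p = 0.0449), and COL5A1 (0.0555), COL1A2 (0.0733) and COL27A1 (0.0723) did not. In all, 7 of the 9 differences were below 0, with a median of -0.63 beside 0.07 for all tested probes. With limma's p COL1A1 met the threshold whichever array was left out, at -1.34 to -0.81. COL1A2 missed it without ABW replicates 1, 2 or 4 or LBW replicates 1, 2 or 3 (-1.23 to -0.65), COL5A1 without ABW 1, 2 or 4 or LBW 1 or 2 (-0.80 to -0.48) and COL27A1 without ABW 1, 2 or 4 or LBW 2 or 3 (0.38 to 0.70). COL3A1 met it without ABW 3, LBW 1 or LBW 4, and COL6A3 without ABW 3. Scaled to spike-in controls, which moved the median of all probes from 0.07 to -0.47, COL1A1 was -1.58 and COL27A1 was 0.05.

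**Figure D3:**
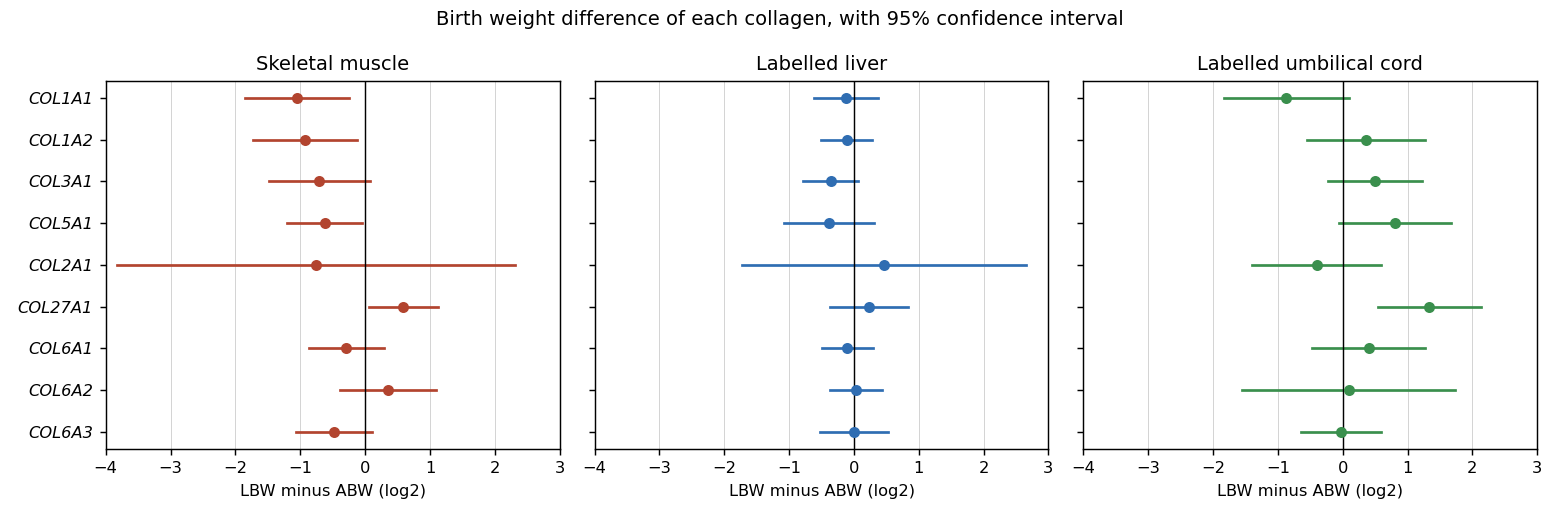
LBW minus ABW in log2 units (x axis) for each collagen (y axis) in each tissue label, as the limma estimate (point) with its 95% confidence interval (line). In skeletal muscle the intervals of COL1A1, COL1A2 and COL5A1 lie below 0 and that of COL27A1 above 0, and on arrays labelled umbilical cord only that of COL27A1 leaves 0.

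No gene of the marker lists of other cell types passed an adjusted p under 0.05 in limma in muscle, where 0% of all tested probes did. The 5 endothelial genes had 3 differences above 0 and 2 below, with a median of 0.0001. They summed to 3.22 to 3.70 in ABW and 3.72 to 4.11 in LBW muscle, with no overlap between the groups. Taken singly, 1 of these genes did not overlap, with LBW higher, which 8.61% of all tested probes also met in muscle. The 5 leukocyte and erythroid genes measured to 1.78 to 5.44 in ABW and 4.11 to 5.92 in LBW. The 11 skeletal muscle genes summed to 10.91 to 11.30 in ABW and 10.99 to 11.65 in LBW, and the 4 smooth muscle genes to 7.94 to 8.20 and 7.99 to 8.70. The 6 cartilage genes had 4 differences above 0 and 2 below, with a median of 0.54. They ranged from -0.37 (NM_080629) to 1.20 (NM_002379, adjusted p = 0.117 in limma). By the study's threshold with limma's p 1 was higher and 0 lower, where 9.7% of all tested probes were higher and 2.5% lower. The cartilage genes summed to -1.73 to -0.79 in ABW and -0.91 to -0.36 in LBW. No endothelial, skeletal muscle or smooth muscle gene was unflagged on all muscle arrays. The part of the listed genes in the collagen values was not tested, and in bulk RNA fewer cells that make a collagen cannot be told apart from less of its RNA per cell.

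On the arrays labelled umbilical cord COL27A1 had the largest difference. It read -0.96, -0.44, -1.78 and -1.64 in ABW and 0.53, -0.25, 0.14 and 0.10 in LBW, and every LBW array lay above every ABW array. LBW minus ABW was 1.34 ± 0.36 (SE), a 2.52-fold difference, with an unadjusted p of 0.00364 and an adjusted p of 0.241 in limma, and an exact permutation p of 0.0286 (n = 4 per group). All 4 LBW arrays lay on slide 5, which held no ABW array, so effects of slide and weight group cannot be told apart here either. The ABW arrays lay on 2 slides, and the difference was 0.83 against those of slide 4 alone and 1.84 against those of slide 6 alone, which were scanned on another day. Scaled to spike-in controls it was 0.93 (unadjusted p = 0.389, limma). Non-overlap with LBW higher was met by 2.65% of all tested probes, and the reverse, met by 3.21%, by no collagen.

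COL1A1 read -1.18, -1.18, -0.97 and -1.25 in ABW and -2.07, -2.48, -2.83 and -0.66 in LBW for labelled umbilical cord. Of the LBW arrays, 3 lay below all ABW arrays and replicate 4 above them. The difference was -0.87 ± 0.44 (SE, adjusted p = 0.59), and without LBW replicate 4 it was -1.32 (unadjusted p = 0.00195, limma).

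COL1A2 differed there by 0.36 (95% confidence interval -0.55 to 1.27), with 1.28 to 1.84 in ABW and 0.86 to 2.64 in LBW. COL5A1 read -2.73, -2.71, -2.85 and -3.65 in ABW and -1.61, -2.68, -2.86 and -1.56 in LBW, a difference of 0.81 (-0.06 to 1.68). COL3A1 differed by 0.49 (-0.23 to 1.22), COL6A1 by 0.40 (-0.47 to 1.27), COL6A2 by 0.09 (-1.55 to 1.73) and COL6A3 by -0.02 (-0.64 to 0.59). In each of these the groups overlapped, and for COL1A2, COL6A1 and COL6A2 the sign turned when arrays were scaled to spike-in controls. COL2A1 was not well above background on any LBW array, and no fold is given.

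No collagen passed an adjusted p under 0.05 in limma on these arrays, where 0.625% of all tested probes did, and 1 had an unadjusted p under 0.05 (8.94% of all probes). By the study's threshold with limma's p 1 was higher, COL27A1, and none was lower, where 3.66% of all tested probes were higher and 5.26% lower. COL27A1 also met it by the methods' t-test (unadjusted p = 0.0154). The median of the 9 differences was 0.36 beside -0.01 for all tested probes. Among 18 hepatocyte genes on the same arrays 7 differences were above 0 and 11 below, the lowest that of F13B, a subunit of coagulation factor XIII, at -3.81 (adjusted p = 0.00707). Of the 18, 2 were lower and 0 higher at an adjusted p under 0.05 in limma. By the study's threshold with limma's p 4 were lower and 0 higher. The summed hepatocyte level was 10.14 to 11.36 in ABW and 10.84 to 11.64 in LBW, the summed smooth muscle level 3.52 to 7.04 and 4.12 to 7.52, and their part in the collagen values was not tested.

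On the arrays labelled liver the differences were small. COL3A1 read 7.21, 7.52 and 7.37 in ABW and 6.88, 7.03 and 7.12 in LBW, so that all LBW arrays lay below all ABW arrays. The difference was -0.36 ± 0.18 (SE, adjusted p = 0.86), and the exact permutation p of 0.10 is the smallest that n = 3 per group allows. By the methods' t-test its unadjusted p was 0.0365, but at 1.28-fold it missed the 1.5-fold part of the study's threshold. Non-overlap with LBW lower was met by 3.21% of all tested probes, and LBW higher, met by 8.82%, by no collagen. Within slide 3, which held ABW replicates 1 to 3 and LBW replicate 1, the difference was -0.49.

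COL1A1 read 4.97, 5.03 and 4.93 in ABW and 4.53, 4.92 and 5.12 in LBW, and COL1A2 read 7.55, 7.49 and 7.62 in ABW and 7.34, 7.51 and 7.48 in LBW. Their differences were -0.12 (95% confidence interval -0.62 to 0.38) and -0.11 (-0.50 to 0.28). Within slide 3 alone they were -0.45 and -0.22. COL5A1 differed by -0.39 (-1.08 to 0.30), COL27A1 by 0.23 (-0.37 to 0.83), and the type VI chains by -0.10 for COL6A1, 0.03 for COL6A2 and 0.00 for COL6A3. COL2A1, flagged on 1 of 3 arrays in each group, differed by 0.46 (-1.73 to 2.65). No collagen passed an adjusted p under 0.05 (0% of all probes), none had an unadjusted p under 0.05 in limma (5.99% of all probes), and none met the study's threshold with that p, which 3.02% of all tested probes met upward and 1.69% downward.

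Across the 3 tissue labels the mean difference of COL27A1 was 0.72 ± 0.17 (SE), above 0 in all 3, with an adjusted p of 0.0533 in limma over all tested probes. Without ABW replicate 2 labelled umbilical cord it was 0.80 with an adjusted p of 0.0132, and without LBW replicate 2 of that label it was 0.76 with an adjusted p of 0.0461. Scaled to spike-in controls it was 0.44 with an unadjusted p of 0.341. The mean difference of COL1A1 was -0.68 ± 0.23 (SE, adjusted p = 0.20), below 0 in all 3 labels, and -0.83 with an adjusted p of 0.0357 without LBW replicate 4 labelled umbilical cord. No collagen passed, where 0.888% of all tested probes did, and 2 had an unadjusted p under 0.05 (13.6% of all probes).

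Whether the birth weight difference itself varied among the labels was tested by the interaction of birth weight and tissue. No collagen passed (1.01% of all tested probes did), and 3 had an unadjusted p under 0.05 (10.1% of all probes). COL5A1, at -0.63 in muscle, -0.39 for labelled liver and 0.81 for labelled umbilical cord, had an unadjusted p of 0.0121 and an adjusted p of 0.267. COL3A1 had an adjusted p of 0.414 and COL27A1 of 0.491. The values of opposite sign in muscle and on arrays labelled umbilical cord, for COL1A2, COL3A1, COL5A1 and COL6A1, were thus not shown to differ.

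Since type I collagen needs both of its chains, COL1A1 minus COL1A2 on the same array was set out by group. In ABW muscle it was -2.69 ± 0.10 (SD, n = 4) and in LBW muscle -2.80 ± 0.13 (SD, n = 4), while each chain alone ranged over more than 2 log2 units there. For labelled liver the ABW arrays had -2.58 ± 0.11 (SD, n = 3) and the LBW arrays -2.59 ± 0.23 (SD, n = 3). For labelled umbilical cord the ABW arrays had -2.73 ± 0.36 (SD, n = 4) and the LBW arrays -3.95 ± 0.57 (SD, n = 4). The LBW arrays of that label lay between -4.61 and -3.30, below the range of all other arrays, whose lowest was -3.01. They were also the only arrays of slide 5, so slide and weight group cannot be told apart in this shift. The value itself depends on how brightly each probe reports, so that only its change between arrays can be read, and no test was made.

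**Figure D4:**
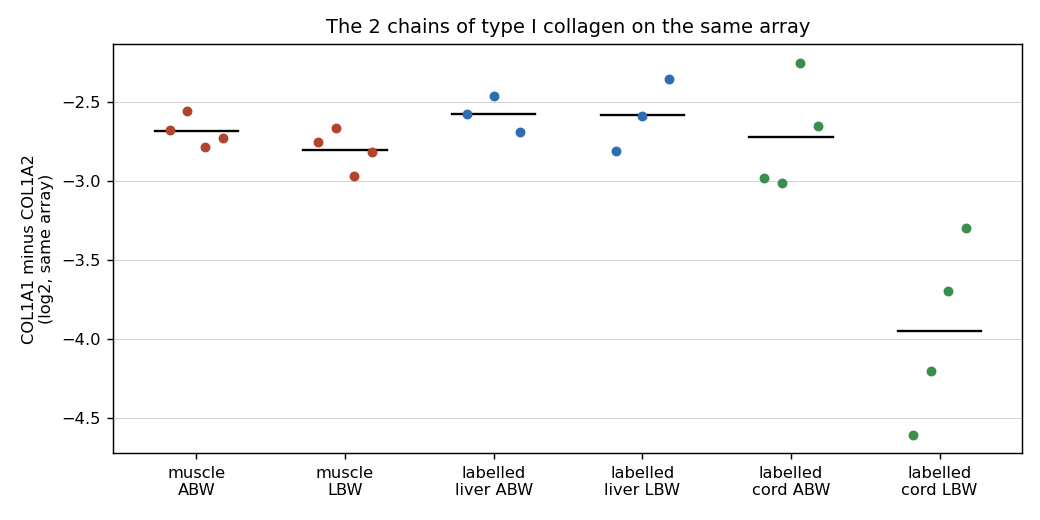
COL1A1 minus COL1A2 on the same array (y axis, log2) in the 6 groups (x axis), with arrays as points and group means as bars. The LBW arrays labelled umbilical cord, which alone made up slide 5, lie lowest, between -4.61 and -3.30. The other 5 groups have means between -2.80 and -2.58.

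After the 6 group means were subtracted, some collagen chains varied together and others did not. Over the 15 pairs of COL1A1, COL1A2, COL3A1, COL5A1, COL6A1 and COL6A3, Pearson's r over 22 arrays ranged from 0.46 (COL5A1 with COL6A3) to 0.83 (COL1A1 with COL1A2). The 21 pairs that held COL2A1, COL6A2 or COL27A1 ranged from -0.38 to 0.37, and COL6A2 had an r of -0.07 with COL6A1 and 0.17 with COL6A3. These are descriptions of 22 arrays that share slides, labelling and scaling. The split into sets of chains was not fixed in advance, so the ranges of r describe it and do not test it. COL2A1 was well above background on only 2 of 6 arrays labelled liver and 2 of 8 labelled umbilical cord. The probes most like the mean of COL1A1, COL1A2 and COL3A1 were those of NM_016174 (r = 0.91), NM_004673 (0.86), NM_004530 (0.85), XR_011777 (0.82) and NM_000502 (0.81), which no table used here pairs with a symbol.

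The genes that modify, bind and degrade collagen were taken as lists. In skeletal muscle no gene of any list passed an adjusted p under 0.05 in limma, where 0% of all tested probes did. Among 10 fibril and matrix partners, proteins that lie on or beside the fibrils, all 10 differences were below 0, from -1.77 (NM_006475, adjusted p = 0.20) to -0.00 (NM_000138), and 5 were lower and 0 higher by the study's threshold with limma's p, where 2.5% of all tested probes were lower and 9.7% higher. Their median was -0.57, and the summed level was 3.74 to 4.78 in ABW and 3.68 to 3.96 in LBW. Named after their values were seen, FN1, the cell-binding fibronectin, differed by -1.37 (adjusted p = 0.135), and LUM, the fibril-spacing proteoglycan lumican, by -1.05 (adjusted p = 0.15).

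The 9 genes of collagen processing, which modify, trim and cross-link the chains, also had all differences below 0 in muscle. They ranged from -1.17 for PCOLCE2, an enhancer of propeptide cleavage (adjusted p = 0.345), to -0.06 (NM_002318), with a median of -0.56 and 1 lower and 0 higher by the same threshold. Of 9 other collagens 4 were above 0 and 5 below, and 1 was higher and 2 were lower by the threshold, from -1.47 for COL8A2, a chain of short-chain type VIII collagen (adjusted p = 0.18), to 0.65 for COL9A2, a cartilage chain (adjusted p = 0.47). Of 6 genes of collagen turnover 3 were above 0 and 3 below (median -0.20), from -0.69 (NM_003254) to 0.36 (NM_004995). Of 5 collagen receptors 3 were above 0 and 2 below (median 0.13), from -0.30 (NM_181501) to 0.45 (NM_006182). No gene of turnover and no receptor met the threshold.

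On the arrays labelled umbilical cord no gene of these lists passed an adjusted p under 0.05 either, where 0.625% of all tested probes did. By the study's threshold with limma's p, 2 other collagens, NM_001850 (1.36) and COL9A2 (1.19), and the receptor NM_002203 (0.98) were higher. No listed gene was lower by it, where 3.66% of all tested probes were higher and 5.26% lower. The median difference was 0.41 for other collagens, 0.04 for collagen processing, -0.05 for fibril and matrix partners, -0.08 for collagen turnover and -0.16 for collagen receptors, beside -0.01 for all tested probes. The highest and lowest among other collagens were 1.36 (NM_001850, adjusted p = 0.56) and -1.21 (COL8A2, adjusted p = 0.65). In collagen processing they were 0.59 (NM_002318) and -0.61 (P4HA1, a prolyl hydroxylase subunit), and among the partners 0.84 (NM_001711) and -0.46 (NM_002023). In turnover they were 0.60 (NM_004530) and -0.42 (MMP1, a collagenase), and among receptors 0.98 (NM_002203) and -0.51 (NM_001004439). For labelled liver none passed either (0% of all tested probes), and the medians in the same order were -0.16, -0.36, -0.16, -0.37 and -0.27, beside 0.06 for all tested probes. By the study's threshold with limma's p, COL4A4 (-2.27) of the other collagens, MMP1 (-1.40) and the receptor NM_002203 (-1.62) were lower there. The processing gene NM_001235 (0.60) was higher. Of all tested probes 1.69% were lower and 3.02% higher by it.

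**Figure D5:**
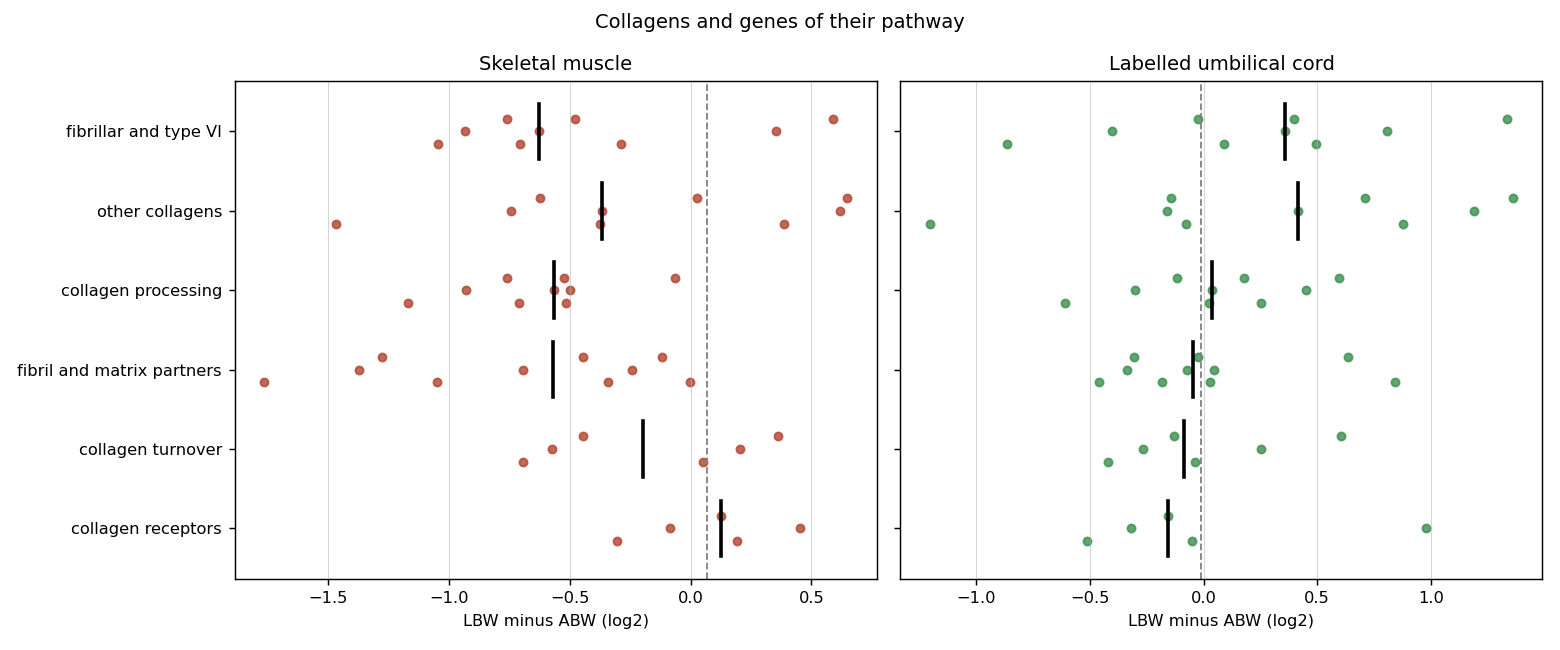
LBW minus ABW in log2 units (x axis) of each gene (points) in the collagens described here and in the lists of their pathway (y axis), in skeletal muscle and on arrays labelled umbilical cord, with the list median as a black bar and the median of all tested probes as a dashed line. In muscle all 9 processing genes and all 10 partners lie at or below 0.

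Most of the pathway was also higher for labelled liver than for labelled umbilical cord. Of all tested probes 31.3% were higher and 35.6% lower there with an adjusted p below 0.05. By that threshold all 10 fibril and matrix partners were higher for labelled liver than for labelled umbilical cord, with no overlap (19.3% of all probes), and of 9 processing genes 7 were higher and 1 lower. All 6 genes of collagen turnover were higher, 4 of 5 receptors were higher and none lower, and of 9 other collagens 5 were higher and 3 lower. The list medians were 5.13 for partners, 3.92 for processing, 4.18 for turnover, 3.07 for receptors and 5.37 for other collagens, beside -0.13 for all tested probes. For skeletal muscle against labelled umbilical cord 5 partners were higher and 2 lower, 5 processing genes higher and 2 lower, 4 turnover genes higher and 0 lower, 5 other collagens higher and 2 lower, and 1 receptor higher and 1 lower, where 35.8% of all probes were higher and 29.1% lower.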

How the data were processed

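RNA from each tissue was labelled with Cy3 and hybridized to single-colour Agilent rhesus macaque arrays. The deposited intensities are, per the file headers, spot signals of Agilent Feature Extraction (versions 10.1.1.1 and, on slide 6, 10.5.1.1) after background subtraction and spatial detrending, with no scaling between arrays. The deposited log2 table of the authors was made, per the methods, by a 75th percentile shift and a baseline transformation. Each probe's median over a tissue is 0 there, column medians lie between -0.13 and 0.26, and its centred values correlated with those from the scanner at r = 0.987 or more, so scale and direction match while levels between tissues are lost. It served as an alternative within tissues.

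Signals were averaged over the 2 spots per probe, and the 75th percentile of the array was subtracted on the log2 scale. For the 8 collagens other than COL2A1 the spots differed by at most 0.33 (log2). A probe was kept if flagged well above background on 75% or more of the arrays in 1 or more of the 6 groups. LBW and ABW were compared within each tissue label with limma 3.58.1 (statmod 1.5.0, R 4.3.3), and a fit of the 6 group means gave the mean of the 3 differences, the interaction and the tissue differences. P-values were adjusted by Benjamini-Hochberg over all 17117 kept probes. Two-sided exact permutation tests of the difference of means (scipy 1.17.1) were computed for 27 collagen and tissue pairs. Their raw p-values are given, and the adjusted values beside them are those of limma. Confidence intervals are at 95%, and the number of arrays limits their precision. Fits were tested on simulated data with known changes. Python 3.11.15, numpy 2.4.6, pandas 2.3.3 and matplotlib 3.10.9 were also used.

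The labels number the arrays of a group without saying whether they are separate animals of the same number across groups. Same-numbered ABW and LBW arrays were set against each other as deviations from their group means, and r ranged from -0.17 to 0.13 in muscle, 0.02 to 0.17 in liver and -0.22 to 0.30 in umbilical cord, so numbers were not taken as pairs. No 2 arrays held identical values. The methods give more liver animals than the arrays analysed here, and place the sampling of liver and muscle some days after birth where the labels say at birth.

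Each of the 9 collagens chosen by accession is reported, and other collagens on the array are given as a list. Pathway lists are given as counts, with the highest and lowest difference of each list in muscle and on arrays labelled umbilical cord. For labelled liver and labelled umbilical cord the pathway genes past the study's threshold are named, a choice made after the values were seen. The most alike probes are the 5 with the highest Pearson r to the mean of COL1A1, COL1A2 and COL3A1 over 22 arrays after subtraction of group means. The marker lists cover hepatocytes, skeletal muscle, smooth muscle, endothelium, cartilage, and leukocytes with erythroid cells. The collagens, the lists and the tests were chosen with earlier results of these data known. Gene symbols other than the collagens' come from the study's own gene table, other probes are called by accession, and the reference gene table matched 0 of the 19376 accessions, so no coordinates or sequences are printed. Alternatives covered background correction, 3 other scalings, the deposited table, a floor on dim signals, the filter, averaging per accession, the spread, the methods' test, slide and replicate blocks, and each array left out.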

Additional observations from a re-analysis of the deposited data

Results flagged for a closer look

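COL5A1 on ABW replicate 4 labelled umbilical cord read -3.65, against -2.85 to -2.71 on the other 3 arrays of its group, a gap of 0.848 of the whole range of the group. It was the single such gap among 36 groups of 4 arrays looked at, where chance alone gives one in about 5% of groups.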

How the results depend on the processing

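The direction of most values held: for single collagens and comparisons, 866 values under alternative settings kept direction and side of the threshold, 23 turned sign, 8 gained and 4 lost a call, and with 1 array left out 1152 kept both, 30 turned sign and 6 gained a call. The replicate block changed no collagen's adjusted call for birth weight. With it COL27A1 had an adjusted p of 0.398 on arrays labelled umbilical cord and 0.0884 in the mean of the 3 labels, and all probes past the study's threshold in muscle were 1994 in place of 2089. Dim signals limit COL2A1, whose value is near background outside muscle, and a stricter filter left it out. Leaving out the arrays of slide 6 was chosen after seeing the data. The cause of the changes below was not tested.

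Collagens called in the mean of the 3 labels numbered 1 with median scaling and with slide as a random block, and 0 to 1 with 1 array left out. In muscle minus labelled umbilical cord 5 were called with spike-in scaling, where COL6A2 was -1.49. By the study's threshold, muscle had 1 collagen by the methods' t-test and 1 to 6 with 1 array left out, labelled liver 0 to 1 with 1 array left out (1 without LBW replicate 3), and labelled umbilical cord 2 with normexp, 2 with median scaling, 2 with quantile normalization, 0 with spike-in scaling, 3 with slide as a random block and 1 to 4 with 1 array left out (over 1 without LBW replicate 2, 3 or 4).

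LBW minus ABW turned sign in muscle for COL6A2 (-0.18, spike-in scaling). On arrays labelled liver it did so for COL2A1 (-0.014 with a floor, -0.24 with slide as a fixed block and within slide 3), COL6A2 (-0.027 in both slide settings) and COL6A3 (-0.011 with normexp, -0.0033 in both slide settings). On those labelled umbilical cord it did so with spike-in scaling for COL1A2 (-0.049), COL6A1 (-0.010) and COL6A2 (-0.32), with normexp for COL2A1 (0.76), and for COL6A3 with median scaling (0.045) and against slide 4 alone (0.087). In the mean of the 3 labels it did so for COL2A1 (0.17, normexp), COL6A1 (-0.027 with normexp, -0.28 with spike-in scaling, -0.0077 with quantile normalization, -0.017 without slide 6) and COL6A2 (-0.12, spike-in scaling). With normexp COL27A1 was 0.066 in muscle minus labelled liver and COL2A1 was -0.20 in labelled liver minus labelled umbilical cord.

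With 1 array left out, COL2A1 ranged from -1.75 to 0.42 in muscle. On arrays labelled liver COL1A1 ranged from -0.25 to 0.043, COL2A1 from -0.21 to 1.42, COL6A2 from -0.042 to 0.076 and COL6A3 from -0.17 to 0.14. On those labelled umbilical cord COL2A1 ranged from -0.65 to 0.016, COL6A2 from -0.56 to 0.59 and COL6A3 from -0.14 to 0.12. In the mean of the 3 labels COL2A1 ranged from -0.57 to 0.16, COL5A1 from -0.16 to 0.0055, COL6A1 from -0.083 to 0.13 and COL6A2 from -0.059 to 0.32, and in muscle minus labelled umbilical cord COL6A2 ranged from -0.56 to 0.018.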
